A study of Mus musculus with 36 samples.

Results

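The neuromuscular junction and denervation genes described here are 10 mouse genes: the muscle acetylcholine receptor subunits Chrna1, Chrnb1, Chrnd, Chrne and Chrng, the receptor tyrosine kinase gene Musk, the adhesion molecule gene Ncam1, and the transcriptional regulators Myog, Runx1 and Hdac4. They were chosen by name from the 19938 genes that had a probe set with 1 gene symbol, and each was represented by its probe set with the highest mean over the 36 arrays. All 10 were found; Hdac4 had 2 such probe sets and the other members had 1 each. The samples were Affymetrix mouse gene arrays of liver, skeletal muscle and white adipose tissue from male C57Bl/6 mice, either wild type or heterozygous for Myc (Myc+/-), killed at 5 or 24 months of age. Total RNA of a cohort's mice was mixed in equal amounts, so each tissue, age and genotype was 1 pool run on 3 technical arrays: 6 wild type mice at 5 months, 5 wild type mice at 24 months, 5 Myc+/- mice at 5 months and 8 Myc+/- mice at 24 months. The same mice gave all 3 tissues, the labels name no particular muscle, and no group received a drug or a nerve injury. The comparisons ask how expression differs with age and with Myc dose.

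The neuromuscular junction is the synapse at which a motor axon drives a muscle fibre. Agrin released by the axon acts through LRP4 and the kinase MuSK to gather acetylcholine receptors beneath the nerve ending, and the nuclei below it transcribe the receptor genes while electrical activity keeps the genes silent elsewhere along the fibre. When a muscle loses its nerve, HDAC4 accumulates, the repressor Dach2 falls, myogenin rises, and receptor subunit genes, Musk, Ncam1 and Runx1 are switched on along the whole fibre. In fetal and denervated muscle the receptor carries the gamma subunit, encoded by Chrng, which the epsilon subunit, encoded by Chrne, replaces in the innervated adult.

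The promoters of 5 members are shown with matches to sequence elements known from the nerve's control of such genes. Whether the matches marked here act in that way was not tested. RefSeq promoter windows (GRCm38.p6) matched 8 of the 10 members, and only the 250 bases before the listed start are given. Capitals mark E-boxes, CANNTG, the element bound by MyoD family factors, and N-boxes, CCGGAA on either strand, the element bound by GABP at synaptic nuclei. Chrna1 (chr2:73580339-73580588, minus strand) and Chrnb1 (chr11:69795938-69796187, minus strand) are shown as receptor genes that were higher in old muscle, Myog (chr1:134289754-134290003, plus strand) as a regulator that was lower, and Chrne (chr11:70619195-70619444, minus strand) and Chrng (chr1:87205561-87205810, plus strand) as the adult and fetal alternatives. The last bases of the Chrnb1 and Chrne windows run into the longest transcript that RefSeq lists.
Chrna1: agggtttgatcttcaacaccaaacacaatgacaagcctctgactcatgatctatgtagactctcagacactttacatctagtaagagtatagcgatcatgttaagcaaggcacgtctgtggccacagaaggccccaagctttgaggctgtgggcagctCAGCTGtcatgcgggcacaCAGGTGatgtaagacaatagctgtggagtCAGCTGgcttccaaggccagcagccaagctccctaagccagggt
Chrnb1: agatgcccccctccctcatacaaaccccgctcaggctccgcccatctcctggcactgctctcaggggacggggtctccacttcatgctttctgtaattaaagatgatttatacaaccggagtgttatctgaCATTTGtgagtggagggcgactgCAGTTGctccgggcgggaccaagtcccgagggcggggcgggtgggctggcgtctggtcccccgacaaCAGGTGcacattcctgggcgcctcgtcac
Chrne: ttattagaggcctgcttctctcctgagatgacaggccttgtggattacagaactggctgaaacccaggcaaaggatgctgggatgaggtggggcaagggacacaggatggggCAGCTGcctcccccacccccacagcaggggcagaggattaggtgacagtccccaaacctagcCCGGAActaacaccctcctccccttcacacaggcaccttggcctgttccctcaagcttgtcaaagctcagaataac
Chrng: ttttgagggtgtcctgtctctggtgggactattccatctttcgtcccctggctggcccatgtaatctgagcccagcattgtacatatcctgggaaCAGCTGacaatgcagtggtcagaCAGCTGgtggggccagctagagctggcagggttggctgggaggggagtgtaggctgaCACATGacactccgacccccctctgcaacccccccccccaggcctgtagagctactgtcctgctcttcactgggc
Myog: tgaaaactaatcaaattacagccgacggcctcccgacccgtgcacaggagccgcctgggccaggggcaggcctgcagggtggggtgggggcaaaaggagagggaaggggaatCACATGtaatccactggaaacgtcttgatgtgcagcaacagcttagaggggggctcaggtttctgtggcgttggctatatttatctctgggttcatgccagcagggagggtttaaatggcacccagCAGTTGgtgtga

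The Chrna1 window held 3 E-boxes, CAGCTG at 92 to 87 bases before the start, CAGGTG at 73 to 68 and CAGCTG at 44 to 39. Chrnb1, Chrng and Musk held 3 E-boxes each, Myog 2 and Chrne 1. Windows with at least 3 E-boxes made up 12.2% of all 32841 RefSeq windows of this length, and 66.2% held at least 1. The only N-box among these windows other than in a Runx1 window was that of Chrne, CCGGAA at 76 to 71 bases before the start, against 12% of all windows with an N-box. Runx1 had 2 windows, 1 with 3 E-boxes and 1 with the N-box, and the Hdac4 window held neither element. The Musk window lay mostly inside the gene that RefSeq lists. The Hdac4 window and the Runx1 window with the N-box lay wholly inside theirs. A match is a run of letters and was not tested for binding. Among the members, Chrnd and Chrng are next to each other on chromosome 1, with 0 RefSeq genes starting between them.

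The muscle pools carried the transcripts of skeletal muscle: Acta1, the skeletal alpha-actin, read 14.63 to 14.65 (log2) in the 4 pools. The transcripts of motor axons did not stand out, and Nefl, the light neurofilament, read 5.10 to 5.46. All 8 motor axon and neuron markers lay below the 40th percentile of the 21789 probe sets with 1 symbol, the level set as the minimum for testing. Alb, which encodes albumin of hepatocytes, read 10.94 in wild type muscle at 5 months, 8.78 in wild type at 24 months, 9.31 in Myc+/- at 5 months and 11.14 in Myc+/- at 24 months; this hepatocyte transcript thus differed between the muscle pools. Array medians ran from 6.95 to 7.14 (log2), and an array correlated with the others of its pool at 0.994 to 0.997 on average. Myc itself read lower in Myc+/- muscle, at 8.48 against 8.96 for 5 months and 8.37 against 9.20 for 24 months.

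Across tissues, 8 of the 10 members had their highest level in muscle in every cohort, Runx1 and Chrng being the exceptions. The share of all probe sets that were highest in muscle in every cohort was not counted. Of all probe sets tested, 54.0% had a muscle mean above that of liver and 45.2% above that of adipose. Musk, the agrin-responsive kinase, was highest in muscle in all 4 cohorts, at 10.65 to 11.10 (log2) in the 4 muscle pools, 5.82 to 6.01 in liver and 6.22 to 6.73 in adipose. Its mean of the 4 muscle pools was 4.87 above liver and 4.39 above adipose. Chrna1, the subunit that forms most of the acetylcholine binding site, read 9.65 to 10.13 in muscle, 5.67 to 6.03 in liver and 5.39 to 5.71 in adipose, a difference of 4.07 from liver and 4.32 from adipose. The muscle levels of these receptor complex genes did not overlap those of either other tissue. Chrnb1, the beta subunit, was 3.34 above liver and 2.06 above adipose, where its pools lay at 7.68 to 7.89. Chrne was 2.70 above liver and 2.82 above adipose, and Ncam1, a homophilic adhesion molecule of axons, Schwann cells and muscle, 2.55 and 2.34. Chrnd, the delta subunit, was 0.96 above liver and 1.03 above adipose, and Myog 0.59 and 0.97. Hdac4 was 1.60 above liver and 1.78 above adipose.

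Chrna1, Chrnd, Chrne, Musk and Myog lay below the minimum for testing in liver and adipose, and Chrnb1 in liver, so they entered a comparison only through muscle and had to differ. Their differences are given without a test, and where a level is that dim a difference can understate the gap. The members above the minimum on both sides were Ncam1, Runx1 and Hdac4 against liver and these with Chrnb1 against adipose. Ncam1 was only just above it, at percentile 41.5 in liver and 43.0 in adipose. Against liver all 3 were higher in muscle, Runx1 by 1.27 ± 0.15 (SE; adjusted p = 0.000166, limma on pool means, Benjamini-Hochberg over all probe sets tested), where 83.4% of all 14287 probe sets passed and 46.2% passed as higher in muscle. Against adipose, where 81.6% passed, 36.6% as higher and 45.0% as lower in muscle, Chrnb1, Ncam1 and Hdac4 were higher and Runx1, a runt-domain factor also active in blood cells, was lower by 0.42 ± 0.15 (adjusted p = 0.0358). Runx1 read 8.58 to 9.24 in muscle, 8.66 to 9.71 in adipose and 7.09 to 8.12 in liver, so its muscle and adipose ranges overlapped. Chrng stood apart from the other receptor genes: it read 6.82 to 7.04 in muscle, 6.69 to 6.96 in liver and 6.61 to 6.93 in adipose. Its muscle mean sat at percentile 39.8 of probe sets in muscle, below the minimum for testing, and without that minimum it was 0.07 ± 0.06 above liver (adjusted p = 0.325) and 0.09 ± 0.06 above adipose (adjusted p = 0.197). The muscle, liver and adipose ranges of Chrng overlapped.

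**Figure D1:**
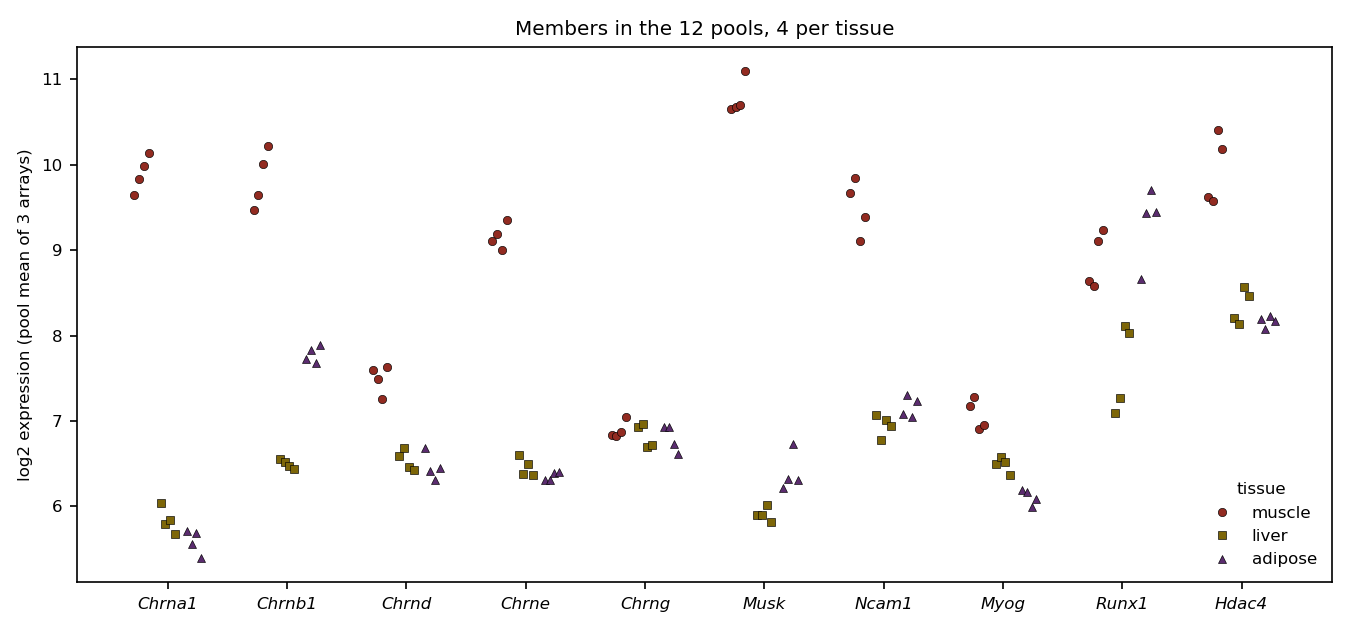
Log2 expression of the 10 members in the 12 pools, each point being the mean of 3 technical arrays of 1 pool and each symbol a tissue (4 pools a tissue). Muscle pools lie above both other tissues for every member but Runx1, whose adipose pools reach 9.71, and Chrng, whose 12 pools all lie between 6.61 and 7.04.

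With age, some of these genes rose and others fell. Averaged over both genotypes, the alpha and beta subunit transcripts and Hdac4 rose in muscle, while Ncam1 and Myog fell. Chrnb1 was 0.56 ± 0.07 higher at 24 than at 5 months (log2, SE, 2 pools an age, 1.47-fold), Chrna1 0.31 ± 0.07 (1.24-fold) and Hdac4 0.70 ± 0.07 (1.63-fold). Ncam1 was 0.51 ± 0.08 lower in old muscle (1.42-fold) and Myog 0.29 ± 0.09 lower (1.23-fold). In this fit 5 of the 9 members tested passed, 3 higher and 2 lower, and 42.5% of all 13073 probe sets tested passed, 23.5% as higher and 19.0% as lower at 24 months. Passing was thus common among all transcripts, and the median age difference of the members was 0.23 against 0.02 over all. With each array centred on muscle fibre markers, calls over all probe sets went from 55.3% higher to 37.9% higher, and the 5 members kept their direction and their calls. The test measures how far an age difference varied between the genotypes, shared over the tissues. In bulk tissue, fewer cells of a type and less RNA per cell cannot be told apart.

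Chrnb1 was the receptor subunit with the widest gap between the ages. Its 3 arrays read 9.43, 9.39 and 9.61 in wild type at 5 months and 9.997, 9.993 and 10.04 at 24 months, and in Myc+/- muscle 9.66, 9.67 and 9.62 at 5 months and 10.25, 10.09 and 10.33 at 24 months. All 6 old arrays were above all 6 young ones, and within each age the Myc+/- arrays were above the wild type arrays. The age difference had an adjusted p of 0.000898. Chrna1 read 9.54, 9.80 and 9.61 in wild type at 5 months, 9.96, 9.98 and 10.0045 at 24 months, 9.88, 9.88 and 9.76 in Myc+/- at 5 months and 10.41, 9.89 and 10.11 at 24 months. The old arrays again lay above the young ones, with the lowest old array at 9.89 only just above the highest young one at 9.88, and the genotypes overlapped within each age. Its adjusted p was 0.0138, and it missed the threshold when any 1 muscle pool was left out (adjusted p from 0.0823 to 0.129, difference 0.30 to 0.33) and without technical replicate 1 (0.0879).

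Chrnd and Chrne, the other subunits of the adult receptor, did not pass the age test. Chrnd read 7.60, 7.71 and 7.48 in wild type at 5 months and 7.40, 7.07 and 7.29 at 24 months, and in Myc+/- muscle 7.49, 7.62 and 7.36 at 5 months and 7.69, 7.49 and 7.73 at 24 months. The old wild type pool had the lowest mean and its arrays lay below the young wild type ones, while the Myc+/- arrays of the ages overlapped. Its difference averaged over the genotypes was -0.10 ± 0.14 (adjusted p = 0.603). Chrne read 9.21, 9.07 and 9.06 in wild type at 5 months, 8.66, 9.31 and 9.05 at 24 months, 9.21, 9.13 and 9.23 in Myc+/- at 5 months and 9.13, 9.38 and 9.53 at 24 months. The 4 groups overlapped, the widest spread being among the 3 arrays of the old wild type pool, and the difference of 0.03 ± 0.09 (adjusted p = 0.816) changed sign to -0.01 and -0.05 under the other scalings. Chrng had pool means of 6.84 and 6.87 in young and old wild type muscle and 6.82 and 7.04 in young and old Myc+/- muscle, and its age difference without the minimum was 0.13 ± 0.08 (adjusted p = 0.306).

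Musk and Ncam1, the membrane proteins outside the receptor, differed in their patterns. Musk read 10.55, 10.71 and 10.69 in wild type at 5 months, 10.62, 10.73 and 10.74 at 24 months and 10.66, 10.75 and 10.62 in Myc+/- at 5 months, and 11.18, 11.03 and 11.08 in Myc+/- at 24 months. The old Myc+/- arrays stood above the 9 others, which overlapped one another. Averaged over the genotypes the age difference was 0.23 ± 0.14 (adjusted p = 0.217). Ncam1 read 9.67, 9.68 and 9.68 in wild type at 5 months and 9.20, 9.04 and 9.09 at 24 months, against 9.81, 9.95 and 9.77 and then 9.58, 9.29 and 9.30 in Myc+/- muscle. Its old arrays were all below its young arrays, with adjusted p = 0.00233.

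Of the regulators, Hdac4, the class IIa histone deacetylase that represses MEF2 targets, had the largest age difference averaged over the genotypes, by the probe set used; in Myc+/- muscle alone that of Runx1 was larger. Its arrays read 9.55, 9.504 and 9.81 in wild type at 5 months and 10.58, 10.35 and 10.31 at 24 months, and 9.77, 9.43 and 9.52 and then 10.45, 10.098 and 9.9985 in Myc+/- muscle. No old array came as low as a young one, and the adjusted p was 0.000444. The second Hdac4 probe set gave a smaller difference of the same sign, 0.30 ± 0.06 (adjusted p = 0.00841), with pool means of 9.59 and 9.93 in wild type and 9.53 and 9.80 in Myc+/-. Myog, the myogenin gene, read 7.28, 7.13 and 7.10 in wild type at 5 months and 6.87, 6.99 and 6.87 at 24 months, and 7.39, 7.27 and 7.19 and then 7.10, 6.77 and 6.99 in Myc+/- muscle. The ages touched at 7.10, the lowest young and the highest old array, and otherwise lay apart. The adjusted p of 0.0337 rose past the threshold without any 1 muscle pool (0.129 to 0.185) and without technical replicate 1, 2 or 3 (0.0831, 0.0808 and 0.0520). Runx1 read 8.72, 8.68 and 8.51 in wild type at 5 months and 9.10, 9.11 and 9.12 at 24 months, and 8.46, 8.68 and 8.61 and then 9.22, 9.22 and 9.28 in Myc+/- muscle. Every old array was above every young one, but the difference of 0.57 ± 0.21 missed the threshold at the pool level (adjusted p = 0.0649) and passed when muscle was fitted alone (0.00711). Leaving out 1 muscle pool reduced the members that passed from 5 to 3 each time (2447 to 3177 probe sets in all), and those 3 were Chrnb1, Ncam1 and Hdac4.

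**Figure D2:**
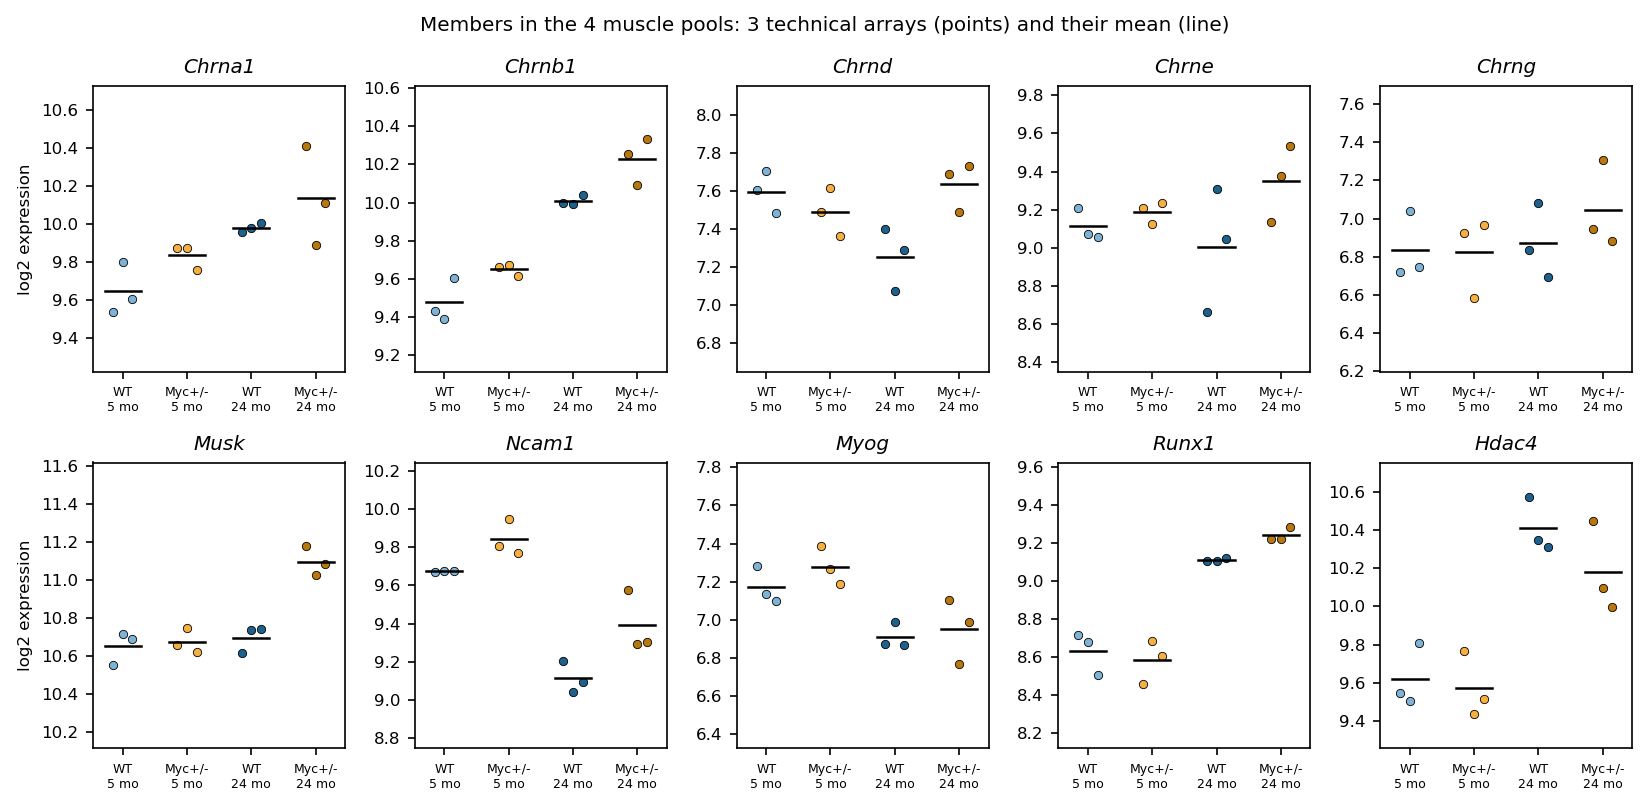
Log2 expression of each member in the 4 muscle pools, with points for the 3 technical arrays and a line for their mean; each panel spans its own range of log2 values. Chrna1, Chrnb1, Runx1 and Hdac4 sit higher and Ncam1 lower in both 24-month pools, and the Musk arrays of the old Myc+/- pool, at 11.03 to 11.18, sit above all others.

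Other transcripts that changed with age in the muscle pools give the setting of these values. The 9 epidermal markers had a mean of 7.63 (log2; arrays 7.45 to 7.73) in wild type muscle at 5 months, 9.31 (9.27 to 9.37) at 24 months, 6.54 (6.499 to 6.60) in Myc+/- muscle at 5 months and 8.99 (8.90 to 9.06) at 24 months. Krt5, a basal keratin, was 3.05 ± 0.21 higher at 24 months, and 8 of 8 epidermal markers tested passed as higher. The 9 adipocyte markers averaged 10.30 (arrays 10.28 to 10.32), 11.64 (11.61 to 11.68), 10.26 (10.14 to 10.36) and 10.77 (10.76 to 10.80) in the same order of pools, with 7 of 9 passing as higher at 24 months. Adipoq, the adipokine adiponectin, read 10.29 and 12.33 in wild type, then 10.34 and 11.14 in Myc+/- muscle. Of the 14 macrophage and blood cell markers, 3 passed as higher (Cd53, Ptprc and Cd163), and their mean went from 9.26 (arrays 9.23 to 9.28) to 9.67 (9.63 to 9.73) in wild type and from 9.23 (9.13 to 9.29) to 9.18 (9.12 to 9.23) in Myc+/- muscle. Hepatocyte markers averaged 9.08 (9.07 to 9.10), 7.18 (7.14 to 7.23), 7.83 (7.79 to 7.88) and 8.35 (8.27 to 8.41), with 1 of 9 passing, Cyp2e1, as higher. The other 8 tested read lower at 24 months, averaged over the genotypes, and did not pass. Cyp2e1 thus went apart from its list, at 11.06 and 12.56 in wild type, then 10.94 and 11.20 in Myc+/- muscle. The adipocyte mean likewise rose in both genotypes and more in wild type. Whether the Cyp2e1 signal came from hepatocytes was not tested. No marker is at 0 on this log2 scale, and the part of these cell types in the members' differences was not tested. For Runx1, which adipose and blood cells also express, the age differences in liver were 1.02 in wild type and 0.76 in Myc+/- and in adipose 1.05 and 0.02.

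Most markers of the other cells at the junction did not pass the age test. Among 7 Schwann cell markers tested 0 passed (limma on pool means, 1, Egr2, at an unadjusted p under 0.05, median 0.08), and their mean was 8.20 (arrays 8.15 to 8.23), 8.12 (8.02 to 8.20), 8.14 (8.13 to 8.15) and 8.29 (8.26 to 8.30) in wild type at 5 and 24 months and Myc+/- at 5 and 24 months. The 8 satellite cell markers averaged 8.11, 7.97, 8.18 and 7.98, and 1 of the 6 tested passed, Chodl at -0.86; Pax7, the defining factor of satellite cells, read 7.52 to 7.67. Of the 20 fibre markers, 1 passed as higher (Des) and 3 as lower (Tnnt1 at -1.04, Myh7 and Mylpf), where Tnnt1 and Myh7 belong to slow fibres. The 11 neuronal nicotinic subunits, which form receptors in neurons and immune cells, were all below the minimum for testing, with means of 5.98 to 6.08 in the 4 muscle pools.

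In the pathway that anchors the receptor, agrin to scaffold, 3 of 20 genes tested passed as higher with age and 4 as lower, with a median of -0.01. Of all probe sets, 42.5% passed, 23.5% as higher and 19.0% as lower. Ache, the acetylcholinesterase that ends transmission, fell by 0.43 ± 0.07 (adjusted p = 0.00324), and Sntb1, a syntrophin of the dystrophin complex, rose by 0.42 ± 0.09 (adjusted p = 0.00751). Among those that did not pass, Agrn gave -0.18 ± 0.07 (adjusted p = 0.0720), its receptor Lrp4 0.08 ± 0.09 and the MuSK adaptor Dok7 -0.24 ± 0.10 (adjusted p = 0.0773). The receptor clustering protein Rapsn gave -0.04 ± 0.08 and Colq, which tethers acetylcholinesterase, -0.07 ± 0.08, and neither passed. Of 6 neuregulin and synaptic transcription genes, Prkar1a rose by 0.38 ± 0.05 and Etv5, an Ets factor of synaptic nuclei, fell by 0.39 ± 0.11 (adjusted p = 0.0228), while Gabpa, the N-box binding factor, gave 0.01 ± 0.07.

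Other genes known to be induced by denervation were likewise mixed, 5 of 14 passing as higher and 2 as lower (42.5% of all probe sets passed), with a median of 0.20. Gadd45a, a stress gene downstream of HDAC4, rose by 0.68 ± 0.10 (adjusted p = 0.00238), Fbxo32, the ubiquitin ligase atrogin-1, by 0.60 ± 0.07 (adjusted p = 0.000788) and Ankrd1 by 1.13 ± 0.07 (adjusted p = 0.000118). Ampd3 and Rrad also rose, and Tnfrsf12a, the TWEAK receptor, fell by 0.77 ± 0.16. Trim63, the ligase MuRF1, gave 0.39 ± 0.15 (adjusted p = 0.0672) and the perinatal myosin Myh8 0.10 ± 0.08. Sln and the embryonic myosin Myh3 were below the minimum for testing. Of the genes lowered by denervation or HDAC4, 0 of 6 tested passed (limma on pool means, 1, Pgam2, at an unadjusted p under 0.05), Hdac9 gave -0.13 ± 0.10 and Dach2 was below the minimum.

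Among the myogenic regulators and partners of class IIa deacetylases, 4 of 15 passed as higher and 5 as lower, again beside 42.5% of all probe sets. Myod1 fell by 0.75 ± 0.12 (adjusted p = 0.00235), the same direction as its relative Myog, whereas Myf6, the family member of mature fibres, gave 0.25 ± 0.09 (adjusted p = 0.0583). Mef2a rose by 0.83 ± 0.05 (adjusted p = 0.000118) and Mef2c by 0.47 ± 0.07 (adjusted p = 0.00164), both being factors that HDAC4 binds. Id3 fell by 0.81 ± 0.07 and Id1 by 0.42 ± 0.14 (adjusted p = 0.0410), both inhibitors of MyoD family factors.

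**Figure D3:**
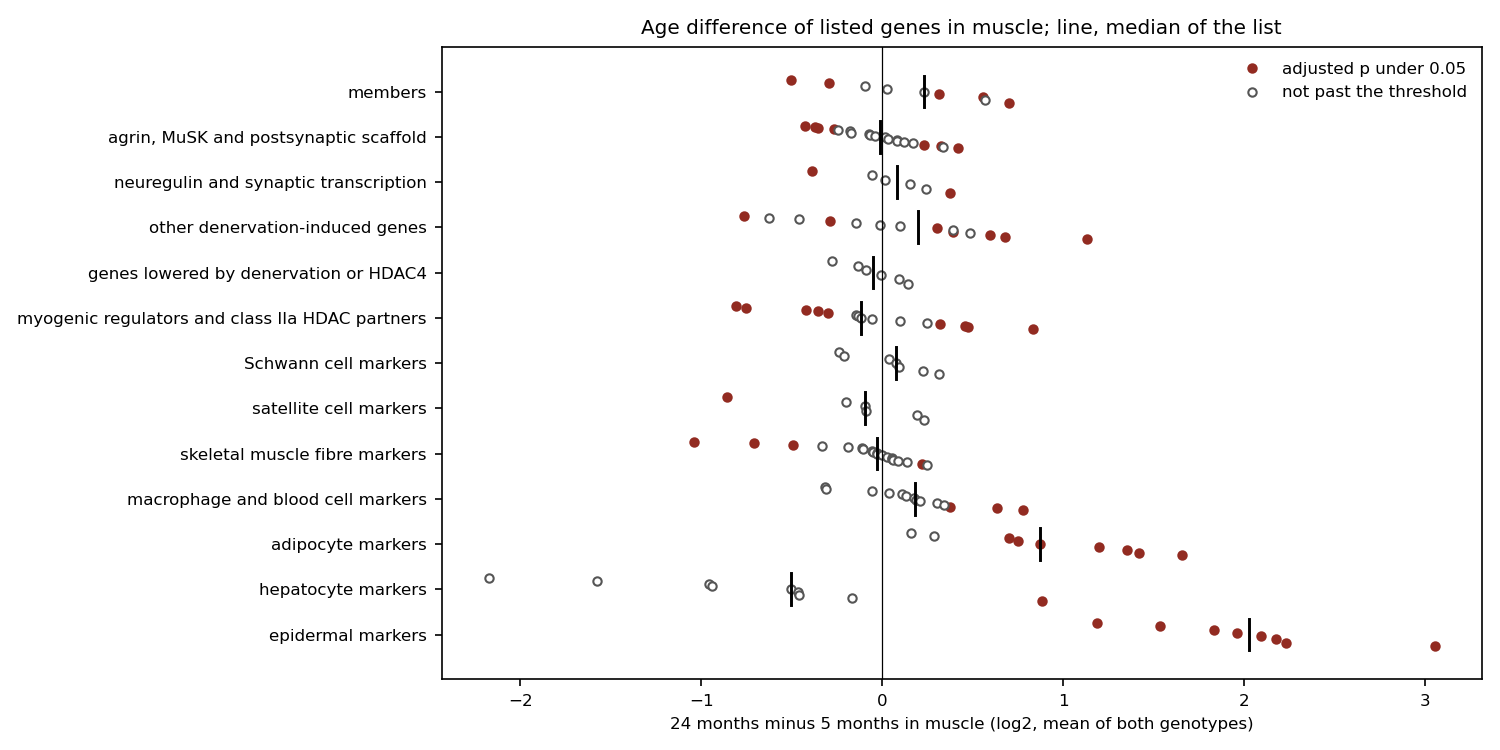
Difference in muscle between 24 and 5 months (log2, mean of both genotypes) for each tested gene of the lists, with filled points for adjusted p under 0.05 (limma on pool means) and a bar for the median of the list. Members spread from -0.51 to 0.70 around a median of 0.23, and the epidermal markers reach 3.05.

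The difference between the genotypes passed for no member. Averaged over the ages, 8 of the 9 tested members read higher in Myc+/- muscle and 1 lower, with a median of 0.17 against -0.01 over all probe sets, of which 46.6% were higher. The differences were 0.17 ± 0.07 for Chrna1, 0.20 ± 0.07 for Chrnb1, 0.14 ± 0.14 for Chrnd, 0.21 ± 0.09 for Chrne, 0.21 ± 0.14 for Musk, 0.22 ± 0.08 for Ncam1, 0.07 ± 0.09 for Myog, 0.04 ± 0.21 for Runx1 and -0.14 ± 0.07 for Hdac4. Their adjusted p ran from 0.885 to 0.993, and 0 of 13073 probe sets passed (0.00%, limma on pool means), where 666, among them the members Chrnb1, Chrne and Ncam1, had an unadjusted p under 0.05. With single arrays and the pool as a random block 351 passed, but that fit counts technical arrays nearly as separate replicates. Beside these values, 14 of 14 macrophage and blood cell markers read lower in Myc+/- muscle (median -0.26), as did 8 of 9 adipocyte markers (median -0.55) and 8 of 8 epidermal markers (median -0.76), none of them past the threshold. Of 9 hepatocyte markers, 4 read higher and 5 lower. Their part in the members' differences was not tested.

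Single pools were then compared against array-to-array error alone, which says whether 2 RNA mixtures differed and not whether the cohorts did. These comparisons share pools with each other, so their values are given side by side. In wild type muscle 6 of 9 members differed between the ages with an adjusted p under 0.05, where 54.4% of all probe sets did: Hdac4 by 0.79 ± 0.10 (SE), Chrnb1 by 0.53 ± 0.10, Runx1 by 0.48 ± 0.08, Chrna1 by 0.33 ± 0.12, Ncam1 by -0.56 ± 0.09 and Chrnd by -0.34 ± 0.12. In Myc+/- muscle 7 of 9 did, against 48.7% of all: Runx1 by 0.66 ± 0.08, Hdac4 by 0.61 ± 0.10, Chrnb1 by 0.58 ± 0.10, Musk by 0.42 ± 0.11, Chrna1 by 0.30 ± 0.12, Ncam1 by -0.45 ± 0.09 and Myog by -0.33 ± 0.12. Past a 1.5-fold difference as well, Hdac4 was the single member in wild type muscle (10.7% of all probe sets) and Hdac4 and Runx1 the members in Myc+/- muscle (8.35%).

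Between the genotypes, 4 members passed in the old pools and 0 in the young ones, and the difference of these differences did not pass. At 5 months 0 of 9 members differed with an adjusted p under 0.05 (limma on arrays, 1.26% of all probe sets; the lowest member p was 0.619, for Ncam1, and 0 members had an unadjusted p under 0.05). At 24 months 4 of 9 did, all higher in Myc+/-, against 9.55% of all probe sets and 2.44% that were higher: Musk by 0.40 ± 0.11 (adjusted p = 0.0107), Chrnd by 0.38 ± 0.12 (0.0300), Ncam1 by 0.28 ± 0.09 (0.0348) and Chrne by 0.34 ± 0.11 (0.0489). None reached 1.5-fold, which 1.55% of all probe sets did. Other genes of the junction went both ways between these old pools. Sntb1 differed by -0.46, Lama4 by -0.32 and Utrn by -0.22, while Rapsn and Colq differed by 0.28 each and Ache by 0.21. Without technical replicate 1 or 3 all 4 missed the threshold, and without replicate 2 Chrnd and Ncam1 did; Chrne also missed with no minimum level (0.0664), with a higher one (0.0520) and with centring on fibre markers (0.0750). Between the same old pools 9 of 9 Schwann cell markers (S100b, below the minimum for testing, by 0.36) and 9 of 10 hepatocyte markers (Alb by 2.35) read higher in Myc+/-. The hepatocyte marker that read lower was Cyp2e1, by -1.36. Lower in Myc+/- were 14 of 14 macrophage and blood cell markers (Mrc1 by -0.63), 9 of 9 adipocyte markers (Adipoq by -1.19) and 9 of 9 epidermal markers. These counts include markers below the minimum, above which lay 7 of the 9 Schwann cell markers. Of all probe sets tested, 48.4% read higher in Myc+/-. The part of these cell types in the 4 differences of the members was not tested. The change with age in Myc+/- minus that in wild type was 0.49 ± 0.16 for Chrnd (adjusted p = 0.0895) and 0.38 ± 0.15 for Musk (adjusted p = 0.189), and 0 of 9 members passed (4.87% of all probe sets; limma on arrays, with 2 members at an unadjusted p under 0.05).

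**Figure D4:**
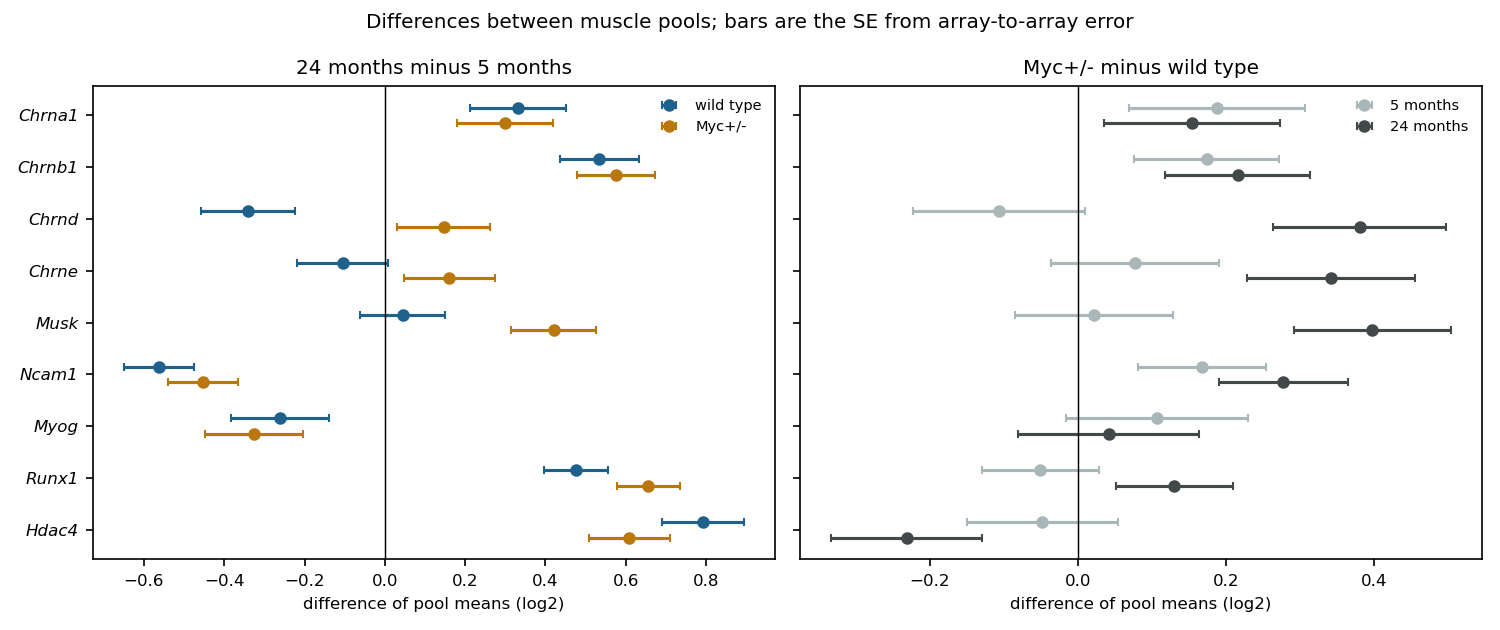
Differences between muscle pools (log2) for the 9 tested members, with age differences by genotype on the left and genotype differences by age on the right; bars are the SE from array-to-array error. Chrnb1, Chrna1, Runx1 and Hdac4 lie right and Ncam1 and Myog left of 0 in both genotypes, while Chrnd is at -0.34 in wild type and 0.15 in Myc+/-.

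The age differences of the members were also set against those in the other tissues, a comparison chosen after the values were seen. In liver the age difference of Chrnb1 was -0.08 in wild type and -0.09 in Myc+/-, of Chrna1 -0.20 and -0.12, and of Ncam1 -0.05 and 0.16. In adipose the same genes gave -0.05 and 0.06, -0.03 and -0.16, and -0.04 and -0.07. Chrna1 in both tissues and Chrnb1 in liver lay below the minimum for testing, so a difference from those tissues restates the muscle change. Of the members measured above the minimum on both sides, Ncam1 differed from liver in its age difference (11.3% of all probe sets did), and Chrnb1, Ncam1 and Hdac4 differed from adipose (35.5%). Ncam1 was only just above the minimum in liver (percentile 41.5) and adipose (percentile 43.0). Hdac4 had liver differences of 0.36 and 0.33, the same sign as in muscle. With any 1 muscle pool left out, 0 members passed against liver (adjusted p from 0.0710 to 0.129 for Ncam1) and 2 against adipose.

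The genes whose levels followed each member most closely over the 12 pools were dominated by tissue, since the 4 pools of a tissue lie together. Synpo2l and Prr33 tracked Chrna1 (Pearson r = 0.999 each over 12 pools), P2rx6 and Styx tracked Chrnb1 (0.994 each), and Fgf6 and Gm5069 tracked Chrnd (0.985 and 0.982). Trim54 and Eef1a2 followed Chrne (0.999 and 0.998), Padi2 and Rbfox1 followed Musk (0.999 and 0.998), and Mettl21c and Krba1 followed Ncam1 (0.996 each). For the regulators the nearest were Osgepl1 and Tmem126a for Myog (0.993 and 0.989), Prkch and Rbpj for Runx1 (0.982 and 0.978) and Ppp3cb, a catalytic subunit of calcineurin, and Naa50 for Hdac4 (0.994 and 0.992). Chrng had the weakest nearest genes, Plb1 at 0.939 and Snap91 at 0.890. No p is given, since the points share their tissue.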

How the data were processed

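Expression was measured on 36 arrays of 12 RNA pools (3 tissues, 2 ages, 2 genotypes, 3 technical arrays a pool). The authors deposited log2 expression values; per the submitters' processing notes the tools were Affymetrix Expression Console and RMA, whose settings are not given in the sources used here. The labels name 2 homogenization methods without assigning them to samples, and both a 3' IVT and a whole-transcript kit. Gene symbols came from the platform annotation, in which 21789 of 35556 probe sets had 1 symbol; the Entrez identifiers of all 10 members were found in RefSeq (GRCm38.p6). No build is named for the array, so coordinates belong only to RefSeq promoter windows.

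The arrays of a pool were averaged. A limma model (limma 3.58.1, R 4.3.3, statmod 1.5.0) of the 12 pool means held tissue, age within tissue and genotype within tissue, with 3 residual and 4.24 prior degrees of freedom and moderation that followed intensity. Each combination had 1 pool, so no p-value here covers the variation among pools of similar mice, and the tissues of 1 cohort enter as independent. Probe sets above the 40th percentile in the tissue were tested (13073 in muscle), with Benjamini-Hochberg adjustment over all of them at 0.05. An array-level limma model (24 residual degrees of freedom) called an adjusted p under 0.05 with at least 1.5-fold, or the p alone where stated. Array number limits array-to-array error only, whose median SD in muscle was 0.12.

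The members and gene lists were chosen with earlier results of these data known. The text names all members, further genes and markers set by list, up to 6 genes a list that passed in muscle, and the 2 genes nearest each member by correlation; Myc and the genes given at an unadjusted p were named after their values were seen. The models were tested on simulated data. Alternatives were the minimum level, the prior, 2 scalings, the samples and arrays used, a random pool block and the choice of probe set.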

Additional observations from a re-analysis of the deposited data

Results flagged for a closer look

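The change with age differed between muscle and adipose for Chrnb1, Ncam1 and Hdac4, and between muscle and liver for Ncam1. This was the test of the difference itself in the pool-level limma fit. Chrna1 in both comparisons and Chrnb1 against liver also passed, but were too dim in the other tissue to count. Against liver the age difference in muscle was 0.47 ± 0.11 higher for Chrna1 (log2, adjusted p = 0.0386) and 0.64 ± 0.09 higher for Chrnb1 (adjusted p = 0.0112), and for Ncam1 it was -0.56 ± 0.11 (adjusted p = 0.0252). Against adipose it was 0.41 ± 0.11 for Chrna1 (adjusted p = 0.0272), 0.55 ± 0.09 for Chrnb1 (adjusted p = 0.00552), -0.45 ± 0.11 for Ncam1 (adjusted p = 0.0194) and 0.63 ± 0.09 for Hdac4 (adjusted p = 0.00382). Such differences were found for 11.3% of all probe sets against liver and 35.5% against adipose. The difference of Chrna1 from liver missed the threshold with the 60th percentile as minimum (adjusted p = 0.0664) and with quantile normalization within tissue (0.0875), and that from adipose with the 60th percentile (0.0646). Chrna1 lay below the minimum for testing in liver and adipose and Chrnb1 in liver, so these differences restate their change in muscle. Hdac4 was above the minimum in all 3 tissues. Ncam1 was too, but only just in liver (percentile 41.5) and adipose (percentile 43.0), where a change would be hard to see. Ncam1 missed the threshold in 5 of 13 alternatives against liver and in 5 of 13 against adipose. Over the 13 its difference ran from -0.72 to -0.47 against liver and from -0.53 to -0.40 against adipose. Chrnb1 and Hdac4 kept their calls against adipose in all 13. All of these muscle values use the same 4 muscle pools.

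Musk in the old Myc+/- muscle pool, at 11.10 (log2), stood far from the 3 other muscle pools, which lay between 10.65 and 10.70. The distance exceeded Dixon's limit for 4 samples, which chance passes in about 1 in 20 groups, and 30 groups of 4 pools were searched.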

How the results depend on the processing

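Chrnb1, Ncam1 and Hdac4 kept the direction and the call of their muscle age difference in all 15 alternatives run; Chrna1 missed the threshold in 5 and Myog in 7 of 14. With single arrays and the pool as a random block, 351 probe sets passed for genotype, 4400 for the age difference in muscle minus liver, and Musk (adjusted p = 0.0480) and Runx1 (3.67e-05) also passed for age. That fit took the correlation within a pool as 0.106, so technical arrays counted nearly as separate replicates. Its calls therefore rest largely on array-to-array error and say little about the cohorts. Chrne's age difference changed sign to -0.0147 with quantile normalization within tissue and to -0.0539 with centring on fibre markers. With the same alternatives Runx1 in muscle minus adipose became -0.0116 (quantile), and Musk with age in wild type became -0.0459 and between genotypes at 5 months -0.0051 (fibre markers). At the array level, members past the threshold with age in wild type numbered 2 under each of those scalings, and in Myc+/- 1 (quantile) and 0 (fibre markers). With no minimum fold 7114 probe sets and 6 members passed with age in wild type, 6364 and 7 with age in Myc+/-, 165 probe sets between genotypes at 5 months, 1248 and 4 members at 24 months, and 637 for the difference of the age differences. Genotype at 5 months gave 118 probe sets with no filter and 23 with the 60th percentile, and the difference of the age differences 410 and 164.

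Leaving out 1 muscle pool or 1 technical replicate number gave 2447 to 5271 probe sets and 3 to 4 members for age, 0 to 63 probe sets for genotype, 581 to 1359 probe sets and 0 to 3 members for muscle minus liver, and 2729 to 4439 probe sets and 2 to 4 members for muscle minus adipose; at the array level it gave 1 to 2 members with age in each genotype. The sign of dim or small differences turned: Chrnd with age (-0.3413 to 0.1460), Chrne with age (-0.1055 to 0.1949), Chrnd (-0.1064 to 0.3809) and Runx1 (-0.0508 to 0.1301) between genotypes, Chrnd (-0.1554 to 0.3318) and Chrne (-0.0402 to 0.2634) minus liver, and Chrnd (-0.1755 to 0.3118), Chrne (-0.1925 to 0.0728), Musk (-0.2084 to 0.1677) and Runx1 (-0.0592 to 0.1217) minus adipose. At the array level so did Chrne with age in wild type (-0.2764 to 0.1134), Musk (-0.0185 to 0.0676), Runx1 (-0.1263 to 0.0532) and Hdac4 (-0.1810 to 0.0742) between genotypes at 5 months, Myog at 24 months (-0.0526 to 0.1751), and Chrna1 (-0.1082 to 0.0341), Chrnb1 (-0.0795 to 0.1565) and Myog (-0.1619 to 0.0811) in the difference of the age differences. The causes were not tested; fewer pools or arrays enter these fits.

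Arrays with the same technical replicate number deviated from their pool means with correlations of -0.0894 to 0.486 over 18 pairs (mean 0.103, against -0.0516 for arrays with different numbers), and since not every pair was over 0.1 the numbers were not taken to pair the arrays. With the replicate number as a block, Chrne between genotypes at 24 months had an adjusted p of 0.0513 in place of 0.0489.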
